A study of Mus musculus with 28 samples.

Results

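Whether the effect of deleting Ldb1 in Lmo2 transgenic mouse thymocytes differs between an early and a later stage was asked with 20 of the 28 RNA sequencing libraries of the series. The tested quantity is an interaction, which is the log2 fold of Ldb1-KO over Lmo2tg at DN4 minus the same log2 fold at DN2/3. A negative value means that the Ldb1-KO level, relative to Lmo2tg, was lower at DN4 than at DN2/3. The 4 groups are Lmo2tg; Ldb1-KO DN4 and Lmo2tg; Ldb1-KO DN2/3, called Ldb1-KO here, and Lmo2tg DN4 and Lmo2tg DN2/3, with 5 libraries each. The sample labels give these 5 for Ldb1-KO, while the design text of the series gives 4. Both genotypes carry the Lmo2 transgene. Ldb1-KO lacks Ldb1 in addition. The breeding notes name floxed Ldb1 mice and Lck-Cre, Rag1-Cre and IL-7Ra-Cre lines, which act in lymphoid cells. The Cre line behind each knockout sample, the deleted exons, the promoter of the transgene and the ages of the mice were not given. Another 8 libraries, 4 each of wild type DN4 and DN2/3, served as a background. The labels do not say that replicates were separate mice, and p-values measure the spread of these samples. Xist and Y-linked genes split the replicate numbers within each genotype, with Xist in 2 of 5 Ldb1-KO pairs and 1 of 5 Lmo2tg pairs, so not all numbers of a genotype can be from 1 mouse. The cell type label reads CD4 T cells, although both named stages are double-negative.

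DN2/3 and DN4 are successive stages of thymocytes that have not yet put CD4 or CD8 on their surface. Cells at DN2/3 commit to the T lineage, shut down genes of stem and progenitor cells and rearrange the T-cell receptor beta locus. Cells that pass beta selection divide fast and lose CD25, the product of Il2ra, as they become DN4. Lmo2 is a LIM-only adaptor and T-cell leukemia oncoprotein that binds no DNA itself, and Ldb1 is the cofactor that holds Lmo2 in a complex with factors such as Tal1, Lyl1 and Gata proteins.

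Total counts ran from 28.1 to 68.15 M in Ldb1-KO libraries and from 31.28 to 74.68 M in Lmo2tg libraries. Levels are in CPM, a gene's count per M total counts, after TMM scaling of the totals. The double-negative label was checked against its markers: the T-cell genes Cd3e, Lck and Bcl11b were at 277 CPM or more in every library, and Il2ra was lower in all DN4 libraries than in all DN2/3 libraries. Within DN2/3, Il2ra also differed by genotype, at 1040 to 1940 CPM in Ldb1-KO and 598 to 989 CPM in Lmo2tg. Erythroid Hbb-bs and megakaryocyte Pf4 had a level of 0 in every library. Other markers on their lists were detected, with summed levels per library of 207.7 to 631.1 CPM for the tested erythroid markers. The tested megakaryocyte markers summed to 1.84 to 7.16 CPM. The 2 levels of 0 therefore do not show that such cells were absent. Ldb1-KO DN4 replicate 2 and Lmo2tg DN4 replicate 1 stood apart in the summed level of double-positive thymocyte markers, at 3577 and 3573 CPM, with the other Ldb1-KO DN4 libraries at 1685 to 2239 CPM and the other Lmo2tg DN4 libraries at 1531 to 2065 CPM. Cd8a was high in other transgenic DN4 libraries too, at 136 to 714 CPM in Ldb1-KO DN4 and 159 to 746 CPM in Lmo2tg DN4, against 20.1 to 58.9 CPM in wild type DN4.

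Ldb1 (chr19:46031570-46045214, mm10, minus strand) had 21.5, 6.11, 34, 55.2 and 12.2 CPM in Ldb1-KO DN4 and 118, 56.9, 83.8, 113 and 115 CPM in Ldb1-KO DN2/3. It had 383, 298, 245, 373 and 424 CPM in Lmo2tg DN4 and 395, 314, 389, 398 and 471 CPM in Lmo2tg DN2/3. All Ldb1-KO libraries were therefore below all Lmo2tg libraries of the same stage, and all Ldb1-KO DN4 libraries were below all Ldb1-KO DN2/3 libraries. The mean left was 7.48% of the Lmo2tg mean at DN4 and 24.8% at DN2/3. The loss of Ldb1 itself thus differed between the stages (log2 interaction -2.02, SE 0.41, adjusted p = 0.0165). That call ended without Ldb1-KO replicate 1 (adjusted p = 0.0503) and without the pairing (adjusted p = 0.221). The part of this unequal loss in the results below was not tested, and in bulk RNA fewer cells of a kind cannot be told apart from less RNA per cell. Lmo2, whose counts do not separate the transgene from the mouse's own gene, averaged 45.6 ± 6.63 CPM in Ldb1-KO DN4 and 30.3 ± 7.21 CPM in Ldb1-KO DN2/3, against 45.1 ± 13.7 CPM in Lmo2tg DN4 and 32.3 ± 3.69 CPM in Lmo2tg DN2/3 (SD, n = 5 each). Its interaction did not pass the test (log2 0.16, SE 0.17, adjusted p = 0.556).

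The interaction passed the test in 1074 of 13959 genes (7.69%), of which 497 were positive (3.56%) and 577 negative (4.13%). Changes past 2-fold were mostly negative, with 356 negative genes and 28 positive ones. A gene is called at an adjusted p below 0.05 from edgeR's quasi-likelihood test, in a model that pairs the DN4 and DN2/3 libraries of one replicate number within a genotype. The number rests on the pairing and on single replicates. Without the pairing, 85 genes were called, 5 positive and 80 negative, and 46 of the 64 called genes among those named by rule were not called. Leaving out 1 replicate gave 371 calls without Ldb1-KO replicate 1, 487 without 2, 690 without 4 and 338 without 5. It gave 565 calls without Lmo2tg replicate 1, 619 without 2 and 2825 without 4. Of the 1074 genes, 301 were called in each of the 10 fits that leave out a replicate, and 55 in each of the 20 settings tried, 5 positive and 50 negative. Each of the 1074 kept its sign in every setting that tested it.

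**Figure D1:**
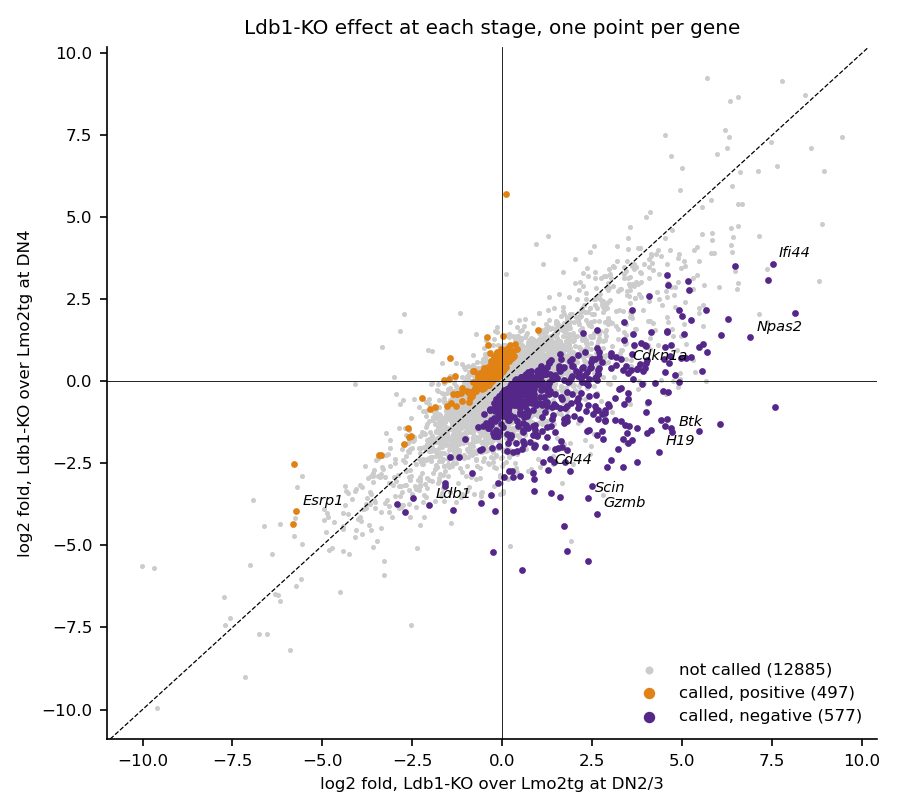
Each point is a gene, with the log2 fold of Ldb1-KO over Lmo2tg at DN4 on the vertical axis and at DN2/3 on the horizontal axis; the dashed line marks equal effects. The 577 negative interaction genes lie below the line, mostly to the right of 0, and the 497 positive ones lie above it, nearer to 0.

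At single stages, Ldb1-KO differed from Lmo2tg in 1374 genes at DN4 (9.84%), 504 of them higher (3.61%) and 870 lower (6.23%), and in 1717 genes at DN2/3 (12.3%), 946 higher (6.78%) and 771 lower (5.52%). These calls and the interaction share libraries. With a block for the replicate number shared by both genotypes, 2688 genes were called at DN4 and 3130 at DN2/3. With only the 10 libraries of a stage, 724 were called at DN4 and 2178 at DN2/3. The stage patterns below were counted in the main fit alone. Among the 577 negative interaction genes, the Ldb1-KO effect was called at DN4 alone in 89, at DN2/3 alone in 221, at both stages with the same sign in 24, at both with opposite signs in 9 and at neither in 234. Among the 497 positive ones, it was called at DN4 alone in 52, at DN2/3 alone in 57, at both with the same sign in 16, at both with opposite signs in 0 and at neither in 372. The commonest pattern among negative genes with a stage call was thus a call at DN2/3 alone. At DN4, 124 of these 221 genes had a positive log2 fold and 97 a negative one (median 0.09), and at DN2/3 all 221 had a positive one (median 2.53). Most of the 372 positive genes called at neither stage, 331 of them, had a positive log2 fold at DN4 and a negative one at DN2/3, with medians of 0.34 and -0.17.

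**Figure D2:**
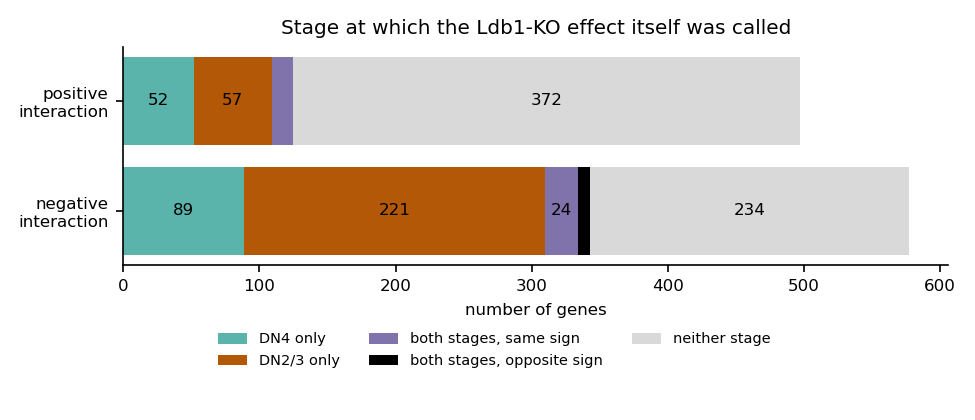
Bars count the interaction genes of each direction, divided by the stage at which the Ldb1-KO effect was itself called. Calls at DN2/3 alone make up 221 of the 577 negative genes, and calls at neither stage make up 372 of the 497 positive genes. Interaction calls come from the paired model and stage calls from a model without pairing.

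The smallest adjusted p of the interaction was that of Scin (chr12:40059769-40134228), which encodes the actin-severing protein scinderin. Scin had 2.67, 1.65, 2.59, 1.18 and 1.06 CPM in Ldb1-KO DN4 and 373, 216, 186, 160 and 429 CPM in Ldb1-KO DN2/3. It had 12.5, 14.1, 55.5, 7.29 and 20.8 CPM in Lmo2tg DN4 and 31.1, 54.2, 87.1, 26.3 and 58.8 CPM in Lmo2tg DN2/3. Ldb1-KO libraries were therefore all below Lmo2tg at DN4 and all above it at DN2/3. The log2 fold was -3.56 at DN4 (adjusted p = 0.000265) and 2.40 at DN2/3 (adjusted p = 0.00178), and the interaction was -5.67 (SE 0.38, adjusted p = 8.54e-05). It passed in every alternative.

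Other genes had the same change of sign. Gzmb, which encodes the cytotoxic protease granzyme B, had 0.17, 0.294, 0.101, 0.131 and 0.313 CPM in Ldb1-KO DN4 and 3.39, 3.84, 2.76, 4.95 and 5.79 CPM in Ldb1-KO DN2/3. In Lmo2tg it had 4.05, 0.452, 7.25, 0.337 and 4.36 CPM at DN4 and 0.599, 1.3, 0.597, 0.13 and 0.623 CPM at DN2/3. Ldb1-KO was again below every Lmo2tg library at DN4 and above every one at DN2/3 (log2 interaction -6.39, SE 0.89, adjusted p = 0.00331). Themis2, a signalling adaptor of B and myeloid cells, averaged 0.923 CPM in Ldb1-KO DN4 and 12.1 CPM in Ldb1-KO DN2/3, against 2.69 CPM in Lmo2tg DN4 and 4.35 CPM in Lmo2tg DN2/3 (log2 interaction -3.14, SE 0.48, adjusted p = 0.00497). Il31ra, a cytokine receptor chain, averaged 0.27 CPM in Ldb1-KO DN4 and 27.1 CPM in Ldb1-KO DN2/3, against 1.78 CPM in Lmo2tg DN4 and 3.59 CPM in Lmo2tg DN2/3 (log2 interaction -5.06, SE 0.88, adjusted p = 0.0095). The lower level of Il31ra at DN4 did not pass in 5 of the 10 fits that leave out a replicate (highest adjusted p = 0.121), namely without Ldb1-KO replicate 2, 4 or 5 or Lmo2tg replicate 3 or 5.

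Of the genes called at DN2/3 alone, several had a large negative interaction. Btk (chrX:134542336-134583570), a kinase of B cell receptor signalling, had 0.714, 0.529, 0.538, 0.59 and 0.47 CPM in Ldb1-KO DN4 and 16.1, 13.8, 14.5, 12.6 and 17.2 CPM in Ldb1-KO DN2/3. It had 4.14, 1.5, 0.884, 0.289 and 1.32 CPM in Lmo2tg DN4 and 0.208, 1.89, 0.244, 0.259 and 0.0891 CPM in Lmo2tg DN2/3. The Ldb1-KO decline with stage was steep and uniform, while Lmo2tg libraries were higher at DN4 in 4 of 5 pairs (log2 interaction -6.54, SE 0.79, adjusted p = 0.00245).

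H19, an imprinted noncoding RNA, averaged 3.61 CPM in Ldb1-KO DN4 and 175 CPM in Ldb1-KO DN2/3, against 15.6 CPM in Lmo2tg DN4 and 8.39 CPM in Lmo2tg DN2/3 (log2 interaction -5.78, SE 0.83, adjusted p = 0.00468). Adam11, a membrane protein of the ADAM family, averaged 1.37 CPM and 14.6 CPM in Ldb1-KO DN4 and DN2/3, against 1.36 CPM and 0.465 CPM in Lmo2tg DN4 and DN2/3 (log2 interaction -5.68, SE 0.61, adjusted p = 0.00146). Npas2, a circadian transcription factor, averaged 1.09 CPM and 5.83 CPM in Ldb1-KO DN4 and DN2/3, against 0.416 CPM and 0.0524 CPM in Lmo2tg DN4 and DN2/3 (log2 interaction -5.88, SE 0.79, adjusted p = 0.00292). The interaction of Btk, H19, Adam11, Npas2 and of Plek, a platelet and leukocyte protein kinase C substrate (log2 -5.09, SE 0.76, adjusted p = 0.00494), passed in every alternative. Emilin2 (log2 -5.07), an extracellular matrix glycoprotein, and Wdfy4 (log2 -5.37), a protein of antigen cross-presentation, passed in all fits that leave out a replicate and did not pass without the pairing (adjusted p = 0.0739 and 0.0598). Lpcat2, a phospholipid acyltransferase (log2 -6.00, SE 1.31, adjusted p = 0.0215), lost its call without Ldb1-KO replicate 1 or 5 or Lmo2tg replicate 1 (highest adjusted p = 0.0642).

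**Figure D3:**
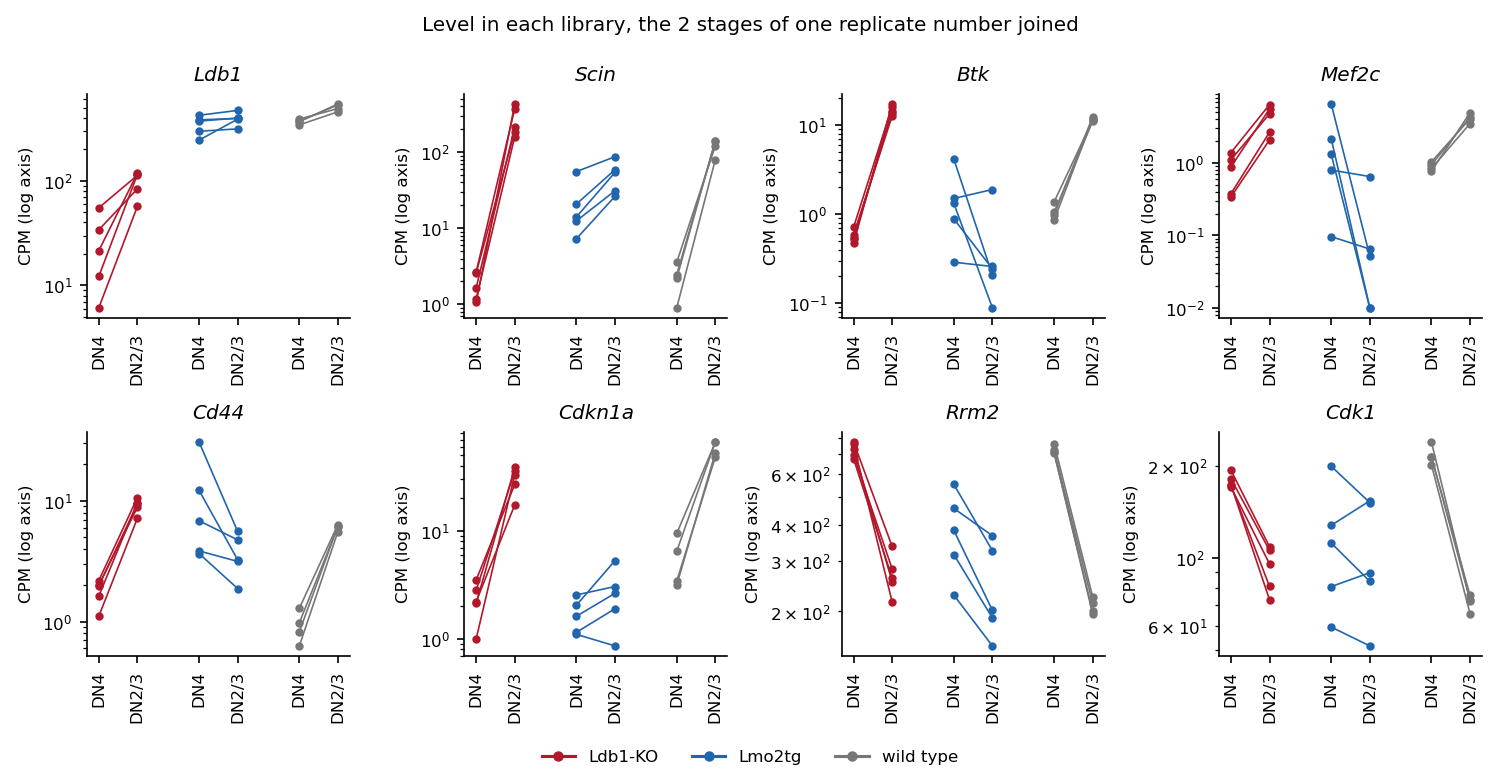
Each line joins the DN4 and DN2/3 libraries of one replicate number, with CPM on a log axis and values below 0.01 drawn at 0.01. Scin, Btk and Cdkn1a are far lower at DN4 in Ldb1-KO and in wild type and differ less between the stages in Lmo2tg, and Rrm2 and Cdk1 are higher at DN4 in every Ldb1-KO and wild-type pair.

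Of 24 tested members of the stem and progenitor list, 10 had a negative interaction and 0 a positive one, against 4.13% and 3.56% of all genes. The list's median log2 interaction was -2.03, against -0.02 over all genes, and -2.19 without the 3 members that had no count in some group. At DN4, 6 members were higher and 5 lower in Ldb1-KO, and at DN2/3 13 were higher and 0 lower. The negative members numbered 5 without Ldb1-KO replicate 1, 6 without 2, 4 without 5 and 3 without the pairing.

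Mef2c (chr13:83504034-83667080), a transcription factor of early lymphoid and myeloid cells, had 0.34, 0.882, 1.39, 1.11 and 0.376 CPM in Ldb1-KO DN4 and 2.08, 5.57, 6.4, 4.77 and 2.66 CPM in Ldb1-KO DN2/3. It had 6.53, 0.8, 2.17, 0.0962 and 1.32 CPM in Lmo2tg DN4 and 0.0521, 0.65, 0, 0.0648 and 0 CPM in Lmo2tg DN2/3. Every Ldb1-KO pair was thus lower at DN4, and every Lmo2tg pair was higher at DN4 (log2 interaction -6.60, SE 1.25, adjusted p = 0.0134). Mycn, a Myc-family factor, averaged 4.52 CPM and 24 CPM in Ldb1-KO DN4 and DN2/3, against 7.01 CPM and 12.9 CPM in Lmo2tg DN4 and DN2/3 (log2 interaction -1.50, SE 0.24, adjusted p = 0.00647). Mef2c and Mycn passed in every alternative. Mycn was lower at DN4 in both genotypes, more so in Ldb1-KO.

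Spi1, which encodes the myeloid and B cell regulator PU.1, averaged 0.142 CPM and 5.96 CPM in Ldb1-KO DN4 and DN2/3, against 0.341 CPM and 0.327 CPM in Lmo2tg DN4 and DN2/3 (log2 interaction -5.58, SE 1.20, adjusted p = 0.0205). Its call ended without Ldb1-KO replicate 5 (adjusted p = 0.0538). Bcl11a, a zinc finger repressor of lymphoid progenitors, averaged 0.364 CPM and 8.46 CPM in Ldb1-KO DN4 and DN2/3, against 0.92 CPM and 0.352 CPM in Lmo2tg DN4 and DN2/3 (log2 interaction -6.51, SE 1.54, adjusted p = 0.0295; 0.0752 without the pairing). Tal1, the basic helix-loop-helix partner of Lmo2 and Ldb1, averaged 0.0253 CPM and 1.58 CPM in Ldb1-KO DN4 and DN2/3, against 0.109 CPM and 0.215 CPM in Lmo2tg DN4 and DN2/3 (log2 interaction -4.42, SE 1.00, adjusted p = 0.0245; 0.0533 without the pairing). The Bcl11a call was lost in 6 of the 10 fits that leave out a replicate (highest adjusted p = 0.0722), and that of Tal1 in 3 (highest adjusted p = 0.0607). For Bcl11a these were the fits without Ldb1-KO replicate 1, 2 or 5 or Lmo2tg replicate 1, 3 or 5, and for Tal1 those without Ldb1-KO replicate 1 or 5 or Lmo2tg replicate 2.

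Genes of the Hoxa cluster on the same list had no called interaction. Over the 8 tested symbols starting with Hoxa, 0 were called, against 7.69% of all genes. Their median log2 interaction was -0.61, against -0.02 over all genes, so the 2 named next do not stand for the cluster. The values of Hoxa7 and Hoxa9 were seen before they were named here. Hoxa7 averaged 8.63 CPM and 8.22 CPM in Ldb1-KO DN4 and DN2/3, against 0.0596 CPM and 0.0485 CPM in Lmo2tg DN4 and DN2/3 (log2 interaction 0.06, SE 0.82, adjusted p = 0.968). Hoxa7 was thus raised in Ldb1-KO at both stages (log2 fold 7.28 at DN4 and 7.46 at DN2/3), and Hoxa9 likewise (log2 fold 6.39 at DN4 and 6.61 at DN2/3). The interval of such interactions is wide, so a stage difference of a few fold is not shown to be absent.

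Of 19 Cdk inhibitors and Btg genes tested, which restrain division, 2 were positive and 2 negative, against 3.56% and 4.13% of all genes. Cdkn1a (chr17:29090976-29100727), which encodes the kinase inhibitor p21, had 2.21, 0.999, 3.51, 2.82 and 2.13 CPM in Ldb1-KO DN4 and 17.4, 33.2, 26.9, 35.8 and 38.6 CPM in Ldb1-KO DN2/3. It had 1.1, 2.05, 1.15, 2.55 and 1.62 CPM in Lmo2tg DN4 and 0.86, 5.3, 1.9, 3.05 and 2.64 CPM in Lmo2tg DN2/3. The genotypes overlapped at DN4, and at DN2/3 every Ldb1-KO library was above every Lmo2tg one (log2 interaction -3.16, SE 0.43, adjusted p = 0.00317, called in every alternative). The G1 kinase inhibitor gene Cdkn2c went the other way (log2 interaction 0.89, SE 0.16, adjusted p = 0.00928; 0.289 without the pairing), with 90 CPM and 42.8 CPM in Ldb1-KO DN4 and DN2/3 and 65.5 CPM and 55.7 CPM in Lmo2tg DN4 and DN2/3.

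Genes of DNA replication and mitosis had positive interactions of small size. Of 30 S phase genes 25 were positive and 0 negative (median log2 interaction 0.66), and of 30 mitosis genes 28 were positive and 0 negative (median 0.67), against 3.56% and 4.13% of all genes and a median of -0.02. These genes share the cell cycle, so they are not independent of each other. At single stages, 6 S phase genes and 1 mitosis gene were higher in Ldb1-KO at DN4, and 0 of either list at DN2/3. Without the pairing 0 of either list was called, though 30 of 30 were positive in each list. Leaving out a replicate gave 8 to 29 S phase calls, with 10 without Ldb1-KO replicate 1, 15 without 4, 8 without 5 and 11 without Lmo2tg replicate 1. It gave 15 to 29 mitosis calls, with 16 without Ldb1-KO replicate 1 and 15 without 5.

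Rrm2 (chr12:24708241-24714146), the regulated subunit of ribonucleotide reductase, had 758, 696, 772, 676 and 731 CPM in Ldb1-KO DN4 and 216, 281, 336, 261 and 254 CPM in Ldb1-KO DN2/3. It had 228, 455, 315, 551 and 382 CPM in Lmo2tg DN4 and 152, 366, 190, 325 and 202 CPM in Lmo2tg DN2/3. All Ldb1-KO DN4 libraries were above all Lmo2tg DN4 libraries, while the genotypes overlapped at DN2/3 (log2 interaction 0.78, SE 0.13, adjusted p = 0.00774). Cdk1 (chr10:69335146-69352938), the kinase that drives entry into mitosis, had 174, 182, 194, 171 and 173 CPM in Ldb1-KO DN4 and 73, 106, 109, 95.7 and 80.7 CPM in Ldb1-KO DN2/3. It had 59.4, 128, 80.6, 200 and 112 CPM in Lmo2tg DN4 and 51.5, 154, 89.5, 152 and 83.9 CPM in Lmo2tg DN2/3. The Lmo2tg libraries differed widely among themselves and their numbers kept nearly the same order at both stages, while the Ldb1-KO libraries lay close together (log2 interaction 0.84, SE 0.15, adjusted p = 0.00933).

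Birc5, a chromosomal passenger protein of dividing cells, averaged 191 CPM and 89.1 CPM in Ldb1-KO DN4 and DN2/3, against 112 CPM and 91 CPM in Lmo2tg DN4 and DN2/3 (log2 interaction 0.80, SE 0.13, adjusted p = 0.00768). Pcna, the sliding clamp of DNA polymerases, averaged 976 CPM and 539 CPM in Ldb1-KO DN4 and DN2/3, against 736 CPM and 649 CPM in Lmo2tg DN4 and DN2/3 (log2 interaction 0.69, SE 0.11, adjusted p = 0.00627). E2f7, a repressor of E2F target genes, had 17.9, 15.7, 14.8, 12.8 and 14.3 CPM in Ldb1-KO DN4 and 3.12, 4.95, 6.85, 5.46 and 3.48 CPM in Ldb1-KO DN2/3. Its Lmo2tg levels were 4.86, 5.67, 4.05, 6.83 and 7.22 CPM at DN4 and 3.76, 4.64, 3.71, 5.6 and 5.67 CPM at DN2/3. E2f7 thus differed between the genotypes at DN4 and overlapped at DN2/3, and its interaction passed in every alternative (log2 1.42, SE 0.24, adjusted p = 0.00832).

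Ccnd3, the D-type cyclin needed for the expansion of thymocytes after beta selection, averaged 640 CPM and 302 CPM in Ldb1-KO DN4 and DN2/3, against 512 CPM in both Lmo2tg DN4 and Lmo2tg DN2/3 (log2 interaction 1.13, SE 0.17, adjusted p = 0.0048; 0.0977 without the pairing). Of 14 G1 cyclins and kinases 4 were positive and 0 negative, against 3.56% and 4.13% of all genes. Tcf19 (log2 1.08) and Mxd3 (log2 1.08), nuclear factors of proliferating cells, and Pkmyt1 (log2 1.03), a kinase that restrains Cdk1, were also among the largest positive values. The Mxd3 and Pkmyt1 calls were lost in 3 and 6 of the 10 fits that leave out a replicate (highest adjusted p = 0.0632 and 0.0875). Those fits were without Ldb1-KO replicate 1 or 5 or Lmo2tg replicate 2 for both genes, and for Pkmyt1 also without Ldb1-KO replicate 4 or Lmo2tg replicate 1 or 3.

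Promoters of these cell cycle genes are shown because the members moved together. Windows of 300 bases around annotated starts came from RefSeq, build GRCm38.p6, with 10454 of the tested genes matched in 13224 windows. The CHR element, TTTGAA, is known from promoters of genes that peak in G2 and mitosis, and the CCAAT box is the site of the factor NF-Y. Each was searched on both strands and on its own. The called mitosis genes had 26 windows, for 24 of 28 genes, and the called S phase genes 23 windows, for 21 of 25. TTTGAA stood in 80.8% of the mitosis windows and in 17.4% of the S phase windows, against 12.1% of all windows. CCAAT stood in 80.8% of the mitosis windows and 73.9% of the S phase windows, against 37.6% of all windows. The E2F motif GGCGGGAA stood in 0% of the mitosis windows and 13% of the S phase windows, against 3.85% of all windows. As 28 of 30 mitosis genes were called, these shares describe the lists rather than the interaction. In the 467 windows found for 386 of the 497 positive genes, TTTGAA stood in 24.6%, CCAAT in 49.9% and GGCGGGAA in 8.35%. These windows include those of the called mitosis and S phase genes. Cdk1 and Ccnb2, a mitotic cyclin, hold both TTTGAA and CCAAT, and Rrm2 holds CCAAT without TTTGAA. The window of Birc5 holds neither. Cdk1, Ccnb2 and Rrm2 are printed to show how the motifs lie, and were chosen with the matches known. In the sequences, read along the gene, capitals mark these motifs or their reverse complements. Cdk1 is at chr10:69352863-69353162, minus strand, Ccnb2 at chr9:70421505-70421804, minus strand, and Rrm2 at chr12:24708004-24708303, plus strand.
Cdk1: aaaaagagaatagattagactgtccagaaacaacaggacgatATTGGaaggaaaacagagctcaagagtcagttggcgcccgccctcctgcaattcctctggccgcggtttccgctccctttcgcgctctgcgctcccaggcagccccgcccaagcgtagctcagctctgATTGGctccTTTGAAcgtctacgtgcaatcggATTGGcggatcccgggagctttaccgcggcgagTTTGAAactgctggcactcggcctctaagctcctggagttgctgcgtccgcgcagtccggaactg
Ccnb2: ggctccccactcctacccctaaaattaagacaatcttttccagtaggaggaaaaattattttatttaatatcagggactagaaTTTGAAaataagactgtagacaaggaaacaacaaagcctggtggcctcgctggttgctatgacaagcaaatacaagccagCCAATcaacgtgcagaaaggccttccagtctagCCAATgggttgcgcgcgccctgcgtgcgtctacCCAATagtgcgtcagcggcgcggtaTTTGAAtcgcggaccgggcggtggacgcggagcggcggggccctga
Rrm2: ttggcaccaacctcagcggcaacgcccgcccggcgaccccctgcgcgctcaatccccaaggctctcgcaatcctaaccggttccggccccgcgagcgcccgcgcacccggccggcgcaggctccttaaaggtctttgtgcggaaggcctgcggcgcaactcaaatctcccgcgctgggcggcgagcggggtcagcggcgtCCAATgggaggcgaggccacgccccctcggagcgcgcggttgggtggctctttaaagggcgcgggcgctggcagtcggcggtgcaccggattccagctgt

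For 418 of the 577 negative genes, 555 windows were found. The PU.1 motif GAGGAAGT stood in 4.86% of them, against 3.15% of all windows. The E-box and GATA composite that Lmo2-Ldb1 complexes are known to bind is CANNTG followed at a fixed spacing by GATA. It stood in 0.18% of the 555, against 0.28% of all windows. These shares describe the letters in short windows and say nothing of binding.

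A few positive interactions were of another kind, in which Ldb1-KO was low at both stages and Lmo2tg was lower at DN4 than at DN2/3. Esrp1, an epithelial splicing regulator, had 0.391, 0.72, 0.403, 0.524 and 0.626 CPM in Ldb1-KO DN4 and 0.366, 0.225, 0.401, 0.9 and 0.375 CPM in Ldb1-KO DN2/3. It had 5.25, 10.3, 4.86, 18.2 and 2.29 CPM in Lmo2tg DN4 and 20, 32, 11, 43 and 10.7 CPM in Lmo2tg DN2/3. The stage difference thus lay in the Lmo2tg libraries (log2 interaction 1.97, SE 0.38, adjusted p = 0.0136). Plagl1, a zinc finger factor (log2 1.66, adjusted p = 0.00899), and Pde10a, a phosphodiesterase (log2 1.31, adjusted p = 0.0164), had the same form, and none of the 3 passed without the pairing (adjusted p = 0.343 to 0.608). Arhgap19, a GTPase-activating protein of dividing T cells, averaged 136 CPM and 84 CPM in Ldb1-KO DN4 and DN2/3, against 129 CPM and 234 CPM in Lmo2tg DN4 and DN2/3. It was higher at DN4 in every Ldb1-KO pair and lower at DN4 in every Lmo2tg pair (log2 interaction 1.53, SE 0.20, adjusted p = 0.00245, called in every alternative).

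Of 30 T-lineage and pre-TCR genes, 3 were positive and 3 negative, with a median log2 interaction of 0.00, against 3.56% and 4.13% of all genes. Tcf7, the transcription factor that starts the T-cell program, averaged 3250 CPM and 2090 CPM in Ldb1-KO DN4 and DN2/3, against 3050 CPM and 2730 CPM in Lmo2tg DN4 and DN2/3 (log2 interaction 0.47, SE 0.10, adjusted p = 0.0191; 0.0739 without the pairing). The Tcf7 call ended without Ldb1-KO replicate 2 or 4 (highest adjusted p = 0.0621). Cd44, an adhesion receptor by which double-negative stages are commonly sorted, had 2.19, 2, 1.98, 1.11 and 1.63 CPM in Ldb1-KO DN4 and 10.6, 8.83, 9.42, 7.15 and 9.64 CPM in Ldb1-KO DN2/3. It had 30.6, 6.84, 12.2, 3.66 and 3.85 CPM in Lmo2tg DN4 and 5.58, 4.75, 3.25, 1.88 and 3.15 CPM in Lmo2tg DN2/3. Cd44 was thus lower at DN4 in every Ldb1-KO pair and higher at DN4 in every Lmo2tg pair (log2 interaction -3.62, SE 0.39, adjusted p = 0.00146). Of 10 surface markers of double-negative subsets, 3 were negative (Cd44, Kit and Il2ra) and 0 positive, against 4.13% and 3.56% of all genes. The gates were not given, so a gene used to sort the stages cannot be told apart from one that follows them.

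Other negative genes had a called genotype difference at DN4 alone. Atp6v0a1, a subunit of the vacuolar proton pump, averaged 0.895 CPM and 9.14 CPM in Ldb1-KO DN4 and DN2/3, against 5.06 CPM and 4.15 CPM in Lmo2tg DN4 and DN2/3 (log2 interaction -3.62, SE 0.56, adjusted p = 0.00514). Its lower level at DN4 passed (adjusted p = 0.0361) but did not pass in 6 of the 10 fits that leave out a replicate (highest adjusted p = 0.109), namely without Ldb1-KO replicate 1, 2, 4 or 5 or Lmo2tg replicate 1 or 5. Itgam, the CD11b integrin chain of myeloid cells, averaged 1.44 CPM and 3.42 CPM in Ldb1-KO DN4 and DN2/3, against 3.87 CPM and 2.07 CPM in Lmo2tg DN4 and DN2/3 (log2 interaction -2.06, SE 0.38, adjusted p = 0.0117). The Itgam interaction passed in every alternative, and that of Atp6v0a1 did not pass without the pairing (adjusted p = 0.132).

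Notch receptors and targets had 3 negative members of 19 and 0 positive (median log2 interaction -0.41), against 4.13% and 3.56% of all genes. Hey1, a Notch-induced repressor, averaged 1.76 CPM and 4.03 CPM in Ldb1-KO DN4 and DN2/3, against 2.63 CPM and 2.58 CPM in Lmo2tg DN4 and DN2/3 (log2 interaction -1.18, SE 0.23, adjusted p = 0.0136; 0.556 without the pairing). Cytokine receptors and signalling genes had 6 negative members of 30 and 0 positive (median -0.56), against the same 4.13% and 3.56%. Il17rb, a receptor chain for IL-25, averaged 72.2 CPM and 256 CPM in Ldb1-KO DN4 and DN2/3, against 93.7 CPM and 141 CPM in Lmo2tg DN4 and DN2/3 (log2 interaction -1.22, SE 0.16, adjusted p = 0.00292; 0.0515 without the pairing). Tgfbr1, the type I TGF-beta receptor, had a log2 interaction of -0.45 (SE 0.09, adjusted p = 0.0177; 0.549 without the pairing), which was lost without Ldb1-KO replicate 5 (adjusted p = 0.0546).

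Of the Bcl2 family, 1 of 15 was positive and 4 were negative, against 3.56% and 4.13% of all genes. The survival gene Bcl2 averaged 79.3 CPM and 202 CPM in Ldb1-KO DN4 and DN2/3, against 79.2 CPM and 92.4 CPM in Lmo2tg DN4 and DN2/3 (log2 interaction -0.998, SE 0.26, adjusted p = 0.0372; 0.212 without the pairing). It is a weak call, lost in 8 of the 10 fits that leave out a replicate (highest adjusted p = 0.0903), all but those without Ldb1-KO replicate 3 or Lmo2tg replicate 4. Of 23 p53 targets, 1 was positive and 2 were negative, with Cdkn1a one of the negative ones. Of the interferon response genes 2 of 28 were negative and 0 positive (median -0.45), and these 7.14% called are near the 7.69% of all genes. Ifi44, an interferon-induced gene, averaged 1.71 CPM and 8.9 CPM in Ldb1-KO DN4 and DN2/3, against 0.126 CPM and 0.0382 CPM in Lmo2tg DN4 and DN2/3 (log2 interaction -3.92, SE 0.69, adjusted p = 0.0122; 0.182 without the pairing). The Ifi44 call was lost without Lmo2tg replicate 1 (adjusted p = 0.146), and the Ldb1-KO level was higher at each stage.

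In the metabolic lists, set against 3.56% positive and 4.13% negative over all genes, glycolysis had 3 positive members of 21 and 0 negative (median 0.24), among them the lactate transporter gene Slc16a1 (log2 interaction 0.62, SE 0.12, adjusted p = 0.0149; 0.569 without the pairing). Myc and ribosome biogenesis had 1 positive and 1 negative member of 27 (median 0.25), and cholesterol synthesis had 0 called of 21 (median 0.28). Homing and egress genes had 3 negative members of 18 and 0 positive (median -0.93), against 4.13% and 3.56% of all genes. Ccr2, a chemokine receptor, averaged 1.67 CPM and 3.06 CPM in Ldb1-KO DN4 and DN2/3, against 3.29 CPM and 0.518 CPM in Lmo2tg DN4 and DN2/3 (log2 interaction -3.30, SE 0.58, adjusted p = 0.00921; 0.0571 without the pairing). E proteins and Id inhibitors had 1 negative member of 9, Tal1, and the Lmo2-Ldb1 complex list had 2 of 18, Ldb1 and Tal1.

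**Figure D4:**
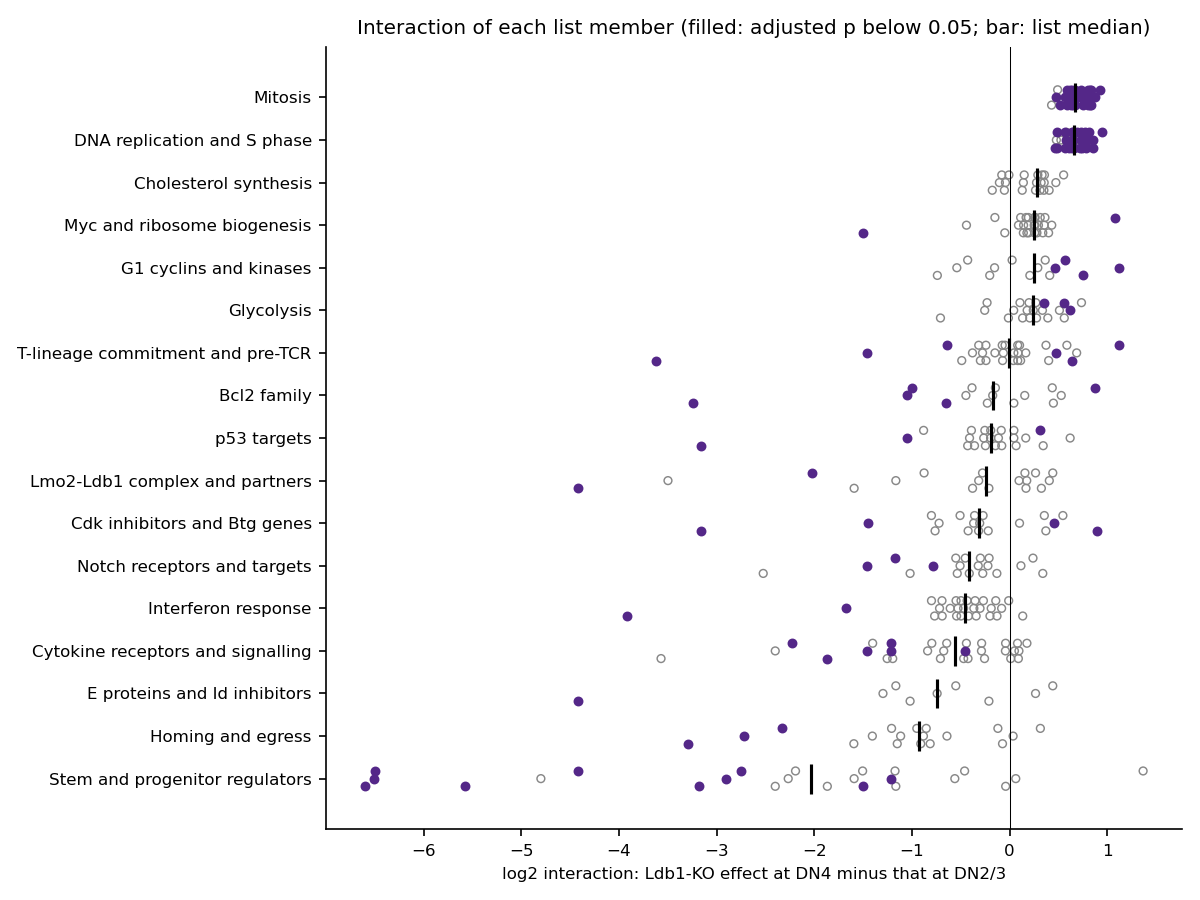
Each point is a list member, placed by its log2 interaction, filled where called, with a bar at the list median. The S phase and mitosis points all lie to the right of 0, with medians of 0.66 and 0.67, and the stem and progenitor list has the lowest median, at -2.03.

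Set within each genotype, the interaction is the difference of the 2 stage changes. DN4 differed from DN2/3 in 6520 genes in Ldb1-KO (46.7%; 22.2% higher and 24.5% lower), in 4894 in Lmo2tg (35.1%; 17.3% higher and 17.8% lower) and in 8851 in wild type (63.4%; 32.1% higher and 31.3% lower). In the negative interaction genes the median log2 change from DN2/3 to DN4 was -1.17 in Ldb1-KO, 0.03 in Lmo2tg and -1.56 in wild type. In the positive ones it was 0.58 in Ldb1-KO, 0.03 in Lmo2tg and 0.94 in wild type. Wild type did not enter the interaction. As a description, the wild-type change was nearer to that of Ldb1-KO than to that of Lmo2tg in 1016 of the 1074 genes (94.6%). Over all genes tested this held in 10757 of 13959 (77.1%), so most genes share it. The 1074 were chosen because the Ldb1-KO and Lmo2tg changes differ, so the gap between the shares was not tested. Wild-type libraries bear names of another pattern, so a difference of library series cannot be told apart from one of genotype in their levels, though each change compares stages within a genotype.

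Per pair of libraries, the S phase list's median log2 change ran from 0.57 to 1.14 in Ldb1-KO, from -0.11 to 0.44 in Lmo2tg and from 1.12 to 1.31 in wild type. For the stem and progenitor list it ran from -2.82 to -1.13 in Ldb1-KO, from -1.12 to 0.10 in Lmo2tg and from -2.22 to -1.83 in wild type. Ldb1-KO and Lmo2tg pairs did not overlap in either list. Over all genes, the paired differences of Ldb1-KO and Lmo2tg did not overlap in 1301 genes (9.32%), with Ldb1-KO above in 4.57% and below in 4.75%. In 814 genes, 5.83% of all tested, the interaction was called as well.

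**Figure D5:**
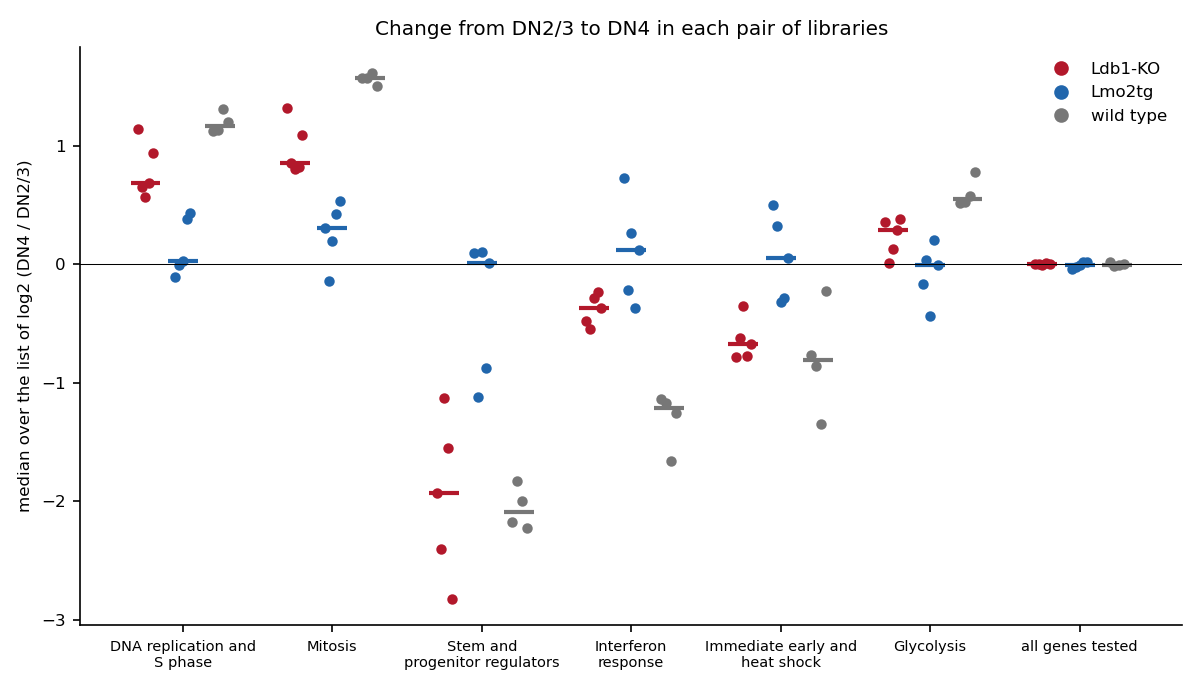
Each point is a pair of libraries, placed by the list's median log2 change from DN2/3 to DN4, with bars at the median of the pairs. Ldb1-KO and wild-type pairs lie above 0 for S phase and mitosis genes and below 0 for stem and progenitor genes, and most Lmo2tg pairs lie nearer to 0.

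Markers of other cells moved with some of these results. B cell markers had 3 negative members of 12 and 0 positive (median -1.69), against 4.13% and 3.56% of all genes, with summed levels of 30.7 to 68.9 CPM in Ldb1-KO DN4 and 62.8 to 91.2 CPM in Ldb1-KO DN2/3, against 48.6 to 253 CPM in Lmo2tg DN4 and 40.4 to 67.9 CPM in Lmo2tg DN2/3. Pax5, a B cell factor, was at or below 1.83 CPM in every library. H2-Aa, an MHC class II chain of antigen-presenting cells, had 1.75, 1.59, 2.54, 6.06 and 1.13 CPM in Ldb1-KO DN4 and 53.8, 9.73, 10.1, 2.65 and 16.7 CPM in Lmo2tg DN4 (log2 interaction -3.31, SE 0.71, adjusted p = 0.0197; 0.054 without Ldb1-KO replicate 5 and 0.222 without the pairing). Myeloid markers had 2 negative members of 12, against 4.13% of all genes, with summed levels of 53 to 80.2 CPM in Ldb1-KO DN4 and 83.9 to 112 CPM in Ldb1-KO DN2/3, against 51.5 to 89.5 CPM in Lmo2tg DN4 and 72.3 to 95.7 CPM in Lmo2tg DN2/3. Lyz2, a lysozyme gene of myeloid cells, had 11 to 17.5 CPM in Ldb1-KO DN2/3 and 1.49 to 3.38 CPM in Lmo2tg DN2/3, with 13.8 to 21 CPM in wild type DN2/3. The part of such cells in the values of Btk, Spi1, Bcl11a, Plek, Wdfy4 and Themis2, which B or myeloid cells also express, was not tested. Without Lmo2tg replicate 1, the B cell list had a median log2 interaction of -1.06, and Btk was still called. The 3 calls of the B cell list became 1 without Ldb1-KO replicate 2, and 0 without Ldb1-KO replicate 1, without 5 or without the pairing. Pax5, Lyz2 and Ccnb2 are named after their values were seen.

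NK and innate lymphoid markers had 2 negative members of 11, gamma-delta T markers 2 of 6, dendritic markers 1 of 8 and mature T markers 1 of 14, against 4.13% of all genes, and a single call in lists of this size says little. Double-positive thymocyte markers had 0 of 11 called, erythroid 0 of 5, stroma 0 of 5, mast cell and basophil 0 of 2 and megakaryocyte 0 of 2. Immediate early and heat shock genes, which answer to cell handling, had 5 negative members of 21 and 0 positive (median -0.90), against 4.13% and 3.56% of all genes. Dusp1, a phosphatase of stress signalling, averaged 89.8 CPM and 136 CPM in Ldb1-KO DN4 and DN2/3, against 127 CPM and 103 CPM in Lmo2tg DN4 and DN2/3 (log2 interaction -0.90, SE 0.14, adjusted p = 0.00612; 0.442 without the pairing). The part of handling in the other results was not tested.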

How the data were processed

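Thymocyte RNA was sequenced in 28 samples. The libraries came from a TruSeq V2 kit and were read as paired ends, per the labels' protocols. The submitters' processing notes name STAR 2.5.2a, featureCounts 1.4.6-p3 and build mm10. The authors deposited raw counts for 24421 gene symbols. The annotation, strand setting and handling of multiply mapped reads were not given, so overlapping genes and near-identical copies such as Bcl2a1d, Pgk1 and Ccnb1 are uncertain. No column lacked a sample (0), and no replicates were copies (lowest chi-square per degree of freedom 27.12).

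Counts of 20 libraries were fitted with edgeR 4.0.16 in R 4.3.3: TMM, filterByExpr by 4 groups (13959 genes kept), robust quasi-likelihood F-test, two-sided, Benjamini-Hochberg adjustment over all genes. The interaction and the stage changes used a block for each of the 10 genotype and replicate number pairs. Ldb1-KO against Lmo2tg at one stage cannot be estimated with that block and used the 4 groups. The wild-type stage change came from a blocked fit of all 28 libraries. SE is the log2 value divided by the square root of F. CPM used TMM library sizes of all 28 libraries. Paired differences used a prior count of 0.5. Tested on simulated data, the fit called most large known interactions and missed most of the smallest ones.

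The pairing was checked: deviations from group means correlated at 0.319 to 0.674 between same-numbered libraries of a genotype (10 pairs) and at -0.352 to 0.157 between others (40 pairs). All 20 libraries correlated best with their own number, and Xist and Y-linked genes matched within 10 of 10 pairs. In wild type, 3 pairs had both Xist and summed Y-linked genes above 10 CPM at both stages. The correlation check did not cover the wild-type pairs. Across genotypes at one stage, same-numbered libraries correlated at -0.0836 to 0.368, above 0.1 in 6 of 10 cases. The limit of 0.1 was a choice, and as not every case was above it, a block across genotypes was an alternative only. Column names run in order through the replicate numbers, with the 4 groups of one number side by side. Replicates 4 and 5 of both genotypes had total counts of 28.1 to 44.88 M, against 45.85 to 74.68 M in replicates 1 to 3. Whether the numbers mark batches was not given.

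Members and lists were chosen with earlier results of these data known. Named genes were Ldb1 and Lmo2, and the 12 largest positive and 12 largest negative interactions among called genes with at least 5 CPM in some group and no overlap of paired differences. To these came the 3 largest per stage pattern, 2 per main list and 1 per marker list by smallest adjusted p. Predicted genes and receptor segments were left out. Some items are not reported here. Positions are from GENCODE M21 on mm10. List counts carry no set test. Alternatives were RLE size factors, DESeq2 1.42.0, limma 3.58.1 voom, other filters, other blocks, all 28 libraries and leaving out each replicate.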

Additional observations from a re-analysis of the deposited data

Results flagged for a closer look

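The Ldb1-KO effect differed between the stages, by the interaction test itself, in 1074 genes. In 4 named genes the effects at the 2 stages were also called with opposite signs. These are Scin (log2 interaction -5.67, from -3.56 at DN4 and 2.40 at DN2/3), Il31ra (-5.06, from -2.60 and 2.91), Themis2 (-3.14, from -1.55 and 1.47) and Gzmb (-6.39, from -4.03 and 2.64).

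Single pairs stood apart from the other 4 of their genotype in 7 of 144 groups of paired log2 differences (DN4 minus DN2/3), and chance flags about 1 in 20. In Lmo2tg replicate 3, Ldb1 had -0.67, against -0.15 to -0.04 in the others. The same pair had 1.85 for Ctla2b (others -0.65 to -0.09), 0.47 for Tgfbr1 (others 0.09 to 0.11) and 0.28 for Gp1ba (others -0.65 to -0.51). Lmo2tg replicate 1 had -1.87 for Plagl1 (others -1.14 to -0.90). Ldb1-KO replicate 1 had -8.86 for Lpcat2 (others -5.93 to -4.94), and Ldb1-KO replicate 3 had -2.84 for Xist (others -0.38 to 0.08).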

How the results depend on the processing

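The number of interaction calls, 1074 with the replicate block within genotype, was 85 with no replicate block, 178 with a block shared by both genotypes and 191 with all 28 libraries and no block. It was 1950 with all 28 libraries and the block, and 2109 with DESeq2. It ran from 338 to 2825 when a replicate was left out, and from 842 to 1227 with RLE size factors, voom or another low-count filter. The call at DN4 (1374 genes) gave 724 with the 10 libraries compared alone and 2688 with the shared block, and 782 to 1991 when a replicate was left out. That at DN2/3 (1717) gave 2178 with the 10 libraries compared alone, 3130 with the shared block and 1118 to 1774 when a replicate was left out. DN4 against DN2/3 in Ldb1-KO (6520) gave 3070 with no replicate block and 4026 with 28 libraries and no block. In Lmo2tg (4894) it gave 1487, 2201 and, with the shared block, 3247. The cause was not tested. No called interaction changed sign in any alternative that tested it, nor did any called Ldb1-KO effect at one stage in a named gene. This does not cover results that were not called, such as that of Lmo2, or Hoxa7, Hoxa9 and the list medians. Of 64 named genes with a called interaction, 16 were called in all 20 settings. Without the block, 46 named results were no longer called. With DESeq2 or RLE size factors, 0 named interaction results lost their call. The lists' counts of calls follow the block and the replicates left out, as given beside them. With 5 pairs a genotype and 8 residual degrees of freedom, small differences in low genes could be missed.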

Other observations

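Gene families were grouped by the start of their symbols, were chosen after the data were seen and carry no test. They overlap the mitosis list, which also holds Kif11, Kif20a, Kif23, Cenpa, Cenpe, Cenpf and Cdca8, so they are not separate evidence. All 6 condensin genes named Ncap were positive (median log2 interaction 0.53), as were 9 of 19 Cenp genes of the centromere (0.53), 5 of 7 Cdca genes (0.59) and 4 of 11 Fanc genes of DNA crosslink repair (0.37), with 0 negative in each. Of 36 kinesin genes named Kif, 14 were positive and 1 negative, and of 20 genes starting with Tub, mostly tubulins, 7 were positive and 1 negative. Of 98 symbols starting with Rpl or Rps, mostly ribosomal proteins, Rps26 was positive, and the kinase genes Rps6ka1 and Rps6ka2 were negative (median 0.20). Of 54 histone genes starting with Hist, 0 were positive and 1 negative (median 0.25). Positive members numbered 2 of 43 Nduf, 2 of 50 Psm, 5 of 77 Mrpl or Mrps and 1 of 83 Snora or Snord genes, with 0 negative in each. Over all genes 3.56% were positive and 4.13% negative.

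Among families with lower values, 7 of 48 Trim genes were negative and 0 positive (median -0.45). Of 22 genes starting with Ifi, 4 were negative, which are Ifi44 and the interferon-induced membrane genes Ifitm1, Ifitm2 and Ifitm3. Of 25 H2 genes, which encode MHC chains and related proteins, 5 were negative and 2 positive (median -0.76). Of 330 zinc finger genes starting with Zfp, 6 were negative and 1 positive (median -0.12). Over all genes 4.13% were negative and 3.56% positive, so the Zfp counts lie below both shares.

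Ldb1-KO DN4 was below 1 CPM while Ldb1-KO DN2/3 was at 5 CPM or more, on average, in 23 of the 1074 called genes. The count was not made over all genes tested, in Lmo2tg or in wild type, so it shows no trait particular to the called genes.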
